A study of Mus musculus with 30 samples.

Results

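The 37 genes of the mouse mitochondrial genome were described here: 13 mRNAs, 22 transfer RNAs (tRNAs) and 2 ribosomal RNAs (rRNAs). They were taken as every row of the deposited expression table whose symbol starts with mt-, 37 of 47643 rows, and 13 of the 37 were above 0. Each was read as TPM, transcripts per 1000000, a level per transcript length with the same sum in every library, and as its percent of the summed TPM of the mt- rows of the same library, called its share below. RNA came from tibialis anterior muscle of male C57BL/6J mice, in 30 libraries of 8 groups that form 4 experiments. Muscle at 24 months (old, n = 3) was compared with muscle at 6 months (young, n = 3). Dexamethasone is a glucocorticoid drug that causes muscle wasting. Muscle labelled as dexamethasone treatment (dex, n = 4) had its own control (dex control, n = 4). Muscle of mice with LLC cancer (LLC, n = 4) had another (LLC control, n = 4). The last experiment set muscle given siRNAs against Cyr61, which encodes a secreted matrix protein (Cyr61 siRNA, n = 4), beside muscle given NT siRNAs (NT siRNA, n = 4). The title of the series asks how wasting differs with its stimulus. No genotype beyond the strain is named in the labels. The sources used here do not give dose, duration, the age of the other 6 groups or the way siRNAs were delivered.

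Both strands of the circular mitochondrial DNA are transcribed as long RNAs that cover many genes at once. The tRNAs lie between most of the mRNAs and are cut out, which releases the mRNAs, and most of these then receive a short poly(A) tail. The mRNAs encode core subunits of respiratory complexes I, III and IV and of ATP synthase (complex V), while the nucleus encodes the other subunits, all of complex II, and the factors that copy, read and process mitochondrial DNA. Tibialis anterior is a mostly fast-fibred muscle.

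Neighbouring genes on this compact genome can share bases, and the deposited table counts each gene apart. In the mm10 annotation (GENCODE M21), 12 of the 13 mRNAs read along the + strand of chrM, and mt-Nd6, a complex I subunit at chrM:13552-14070, reads along the − strand. The sequences below are shown because mt-Nd6 and mt-Atp8 varied most between libraries, and both overlap a neighbour. In the first pair, the last 60 bases of mt-Nd5 (chrM:13506-13565, + strand) and of mt-Nd6 (chrM:13552-13611, − strand), capitals mark the 14 bases at chrM:13552-13565 that both genes hold on opposite strands. In the second pair, the whole 204 bases of mt-Atp8 (chrM:7766-7969, + strand) and the first 60 bases of mt-Atp6 (chrM:7927-7986, + strand), capitals mark the 43 bases at chrM:7927-7969 that both hold on the same strand.
mt-Nd5: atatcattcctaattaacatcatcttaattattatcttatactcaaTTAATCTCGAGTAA
mt-Nd6: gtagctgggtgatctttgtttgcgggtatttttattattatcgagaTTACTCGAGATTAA
mt-Atp8: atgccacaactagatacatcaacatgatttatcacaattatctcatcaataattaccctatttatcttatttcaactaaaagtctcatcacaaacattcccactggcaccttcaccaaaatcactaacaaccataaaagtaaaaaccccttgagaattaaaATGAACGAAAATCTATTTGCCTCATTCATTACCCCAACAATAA
mt-Atp6: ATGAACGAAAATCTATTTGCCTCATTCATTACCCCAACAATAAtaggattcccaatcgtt
The other overlaps were shorter, 7 bases between mt-Nd4l and mt-Nd4 and 1 base between mt-Atp6 and mt-Co3. Guanine made up 28.1% of mt-Nd6 and 5.88 to 16.1% of the other mRNAs.

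The depth behind these values was high. Whole reads could be recovered from the TPM for 387 of 390 values of the 13 mRNAs (tolerance 0.05 read), and the 13 mRNAs held 5866496 to 14919986 reads per library, so counting error was small beside the spread between libraries. The summed TPM of 7 skeletal muscle markers (Acta1, Ckm, Mb, Myh4, Ttn, Tnnt3 and Pvalb) lay between 59513 and 105854 in every library, and all 7 were detected in each group. Cyr61, the target of the siRNAs, stood at 32.9, 52.8, 45.8 and 25.5 TPM in the Cyr61 siRNA libraries and at 57.0, 64.6, 67.8 and 36.8 TPM in the NT siRNA libraries, which overlapped. The 8 libraries of the LLC experiment, tumour and control alike, stood apart from the other 22 in mt-Nd6 and, for 6 of them, in mt-Atp8, as given below. LLC 2 and LLC 3 stood apart from the other 6 in several shares, and the main LLC values are also given without them. The labels call the samples biological replicates and do not say which animal each came from.

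All 22 tRNAs and both rRNAs, mt-Rnr1 (chrM:70-1024) and mt-Rnr2 (chrM:1094-2675), the RNAs of the mitochondrial ribosome, were listed at 0 in all 30 libraries. The rows were not alone in this. All 5933 rows of 9 classes of small or structural nuclear RNA, among them microRNAs, small nuclear RNAs and nuclear rRNAs, were also listed at 0, as were 7 nuclear copies of mitochondrial DNA, while 23193 rows of the table were above 0. Ribosomal RNA is abundant in every cell, so a listed 0 is no measured level, and these 24 rows entered no comparison. The shares below are shares among the 13 mRNAs.

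The 13 mRNAs together took from 34.0% (dex 2) to 60.4% (LLC 3) of all TPM of a library. They took 41.5, 34.0, 39.2 and 37.0% in the 4 dex libraries and 50.7, 50.2, 47.7 and 46.3% in the dex controls, so every dex library lay below every library of its control. The difference of the means was −10.8 percentage points. LLC libraries held 49.3, 47.3, 60.4 and 46.5% and their controls 41.7, 46.9, 48.7 and 46.5%; these overlapped, and 1 library, LLC 3, was above all others of the series. The LLC means differed by 4.94 percentage points, and by 1.96 without LLC 2 and LLC 3. Old muscle held 51.4, 50.5 and 43.7% and young muscle 48.0, 51.2 and 52.5%, and the sign of that difference rested on old 3, without which it was 0.409 percentage points higher in old. Cyr61 siRNA libraries held 52.0, 51.5, 42.2 and 49.5% and NT siRNA libraries 51.5, 48.1, 47.4 and 57.2%, which overlapped. The sum was given no test. In whole tissue, fewer cells or fibres rich in mitochondria and less mitochondrial RNA per cell cannot be told apart. The value is a percent of a fixed sum, so more RNA from nuclear genes cannot be told apart from either.

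**Figure D1:**
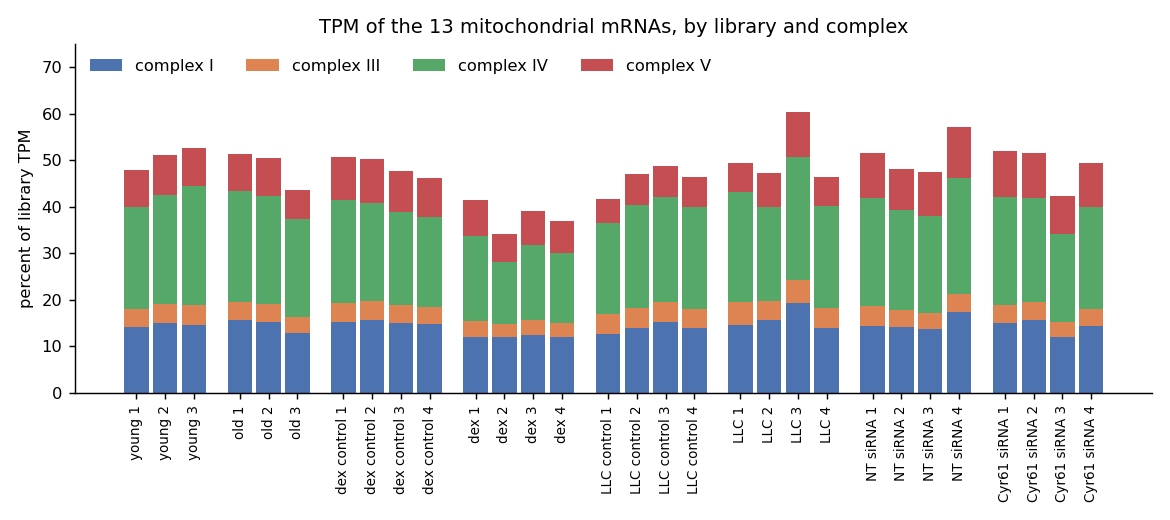
Percent of library TPM (y axis) held by the mitochondrial mRNAs in each of the 30 libraries (x axis), stacked by the respiratory complex their proteins belong to. The 4 dex bars reach 34.0 to 41.5% and stand below the 4 dex control bars, and LLC 3 is the tallest at 60.4%.

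Complex IV mRNAs held the largest part. The 3 complex IV genes, mt-Co1, mt-Co2 and mt-Co3, which encode the catalytic core of cytochrome c oxidase, held from 41.0 ± 2.03% (SD, n = 4, dex) to 46.9 ± 0.317% (SD, n = 4, LLC control) of the mt- sum in the 8 groups. The 7 complex I genes held 28.9 to 31.97% as group means, the pair of complex V genes 13.4 to 19.0%, and mt-Cytb, the only complex III gene, 7.46 to 9.33%. Levels per length fell into a steady order. mt-Co1 (chrM:5328-6872), the heme-bearing subunit of complex IV, averaged 81728 TPM over the 30 libraries and was the highest of the 13 in 30 of 30. mt-Co3 (chrM:8607-9390) followed at 66919 and mt-Co2 (chrM:7013-7696), which takes electrons from cytochrome c, at 64472 TPM, and mt-Co3 was the higher of these in 23 of 30 libraries. mt-Atp6 (chrM:7927-8607), a subunit of the proton channel of ATP synthase, averaged 53183 TPM. It lay below mt-Co2 in 30 of 30 and above mt-Cytb (chrM:14145-15288), at 39128 TPM, in 29 of 30.

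Complex I genes made up most of the lower ranks, and several neighbours there changed places between libraries. mt-Nd1 (chrM:2751-3707) averaged 36564 TPM and lay below mt-Cytb in 22 of 30 libraries. mt-Nd2 (chrM:3914-4951) averaged 27909.7 TPM and mt-Atp8 (chrM:7766-7969), a small membrane subunit of ATP synthase, 27499 TPM, and their order depended on the experiment. mt-Nd2 was the higher in 8 of 8 libraries of the LLC experiment (28618 against 16676 TPM as means) and in 6 of 6 of the age experiment, and mt-Atp8 in 8 of 8 of the siRNA experiment (37035 against 29310.4 TPM as means) and in 7 of 8 of the dex experiment. mt-Nd4 (chrM:10167-11544) averaged 25689 TPM and was below mt-Atp8 in 19 of 30. mt-Nd3 (chrM:9459-9806) at 19573 and mt-Nd4l (chrM:9877-10173) at 19021 TPM changed places likewise. mt-Nd3 was the higher in 8 of 8 siRNA libraries and in 5 of 6 of the age experiment, and mt-Nd4l in 4 of 4 dex controls, 3 of 4 dex, 3 of 4 LLC control and 2 of 4 LLC libraries. mt-Nd5 (chrM:11742-13565), a proton-pumping subunit, averaged 12061 TPM, below mt-Nd4l in 30 of 30. mt-Nd6 was the lowest of the 13 in 27 of 30 libraries; the exceptions were in the LLC experiment.

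**Figure D2:**
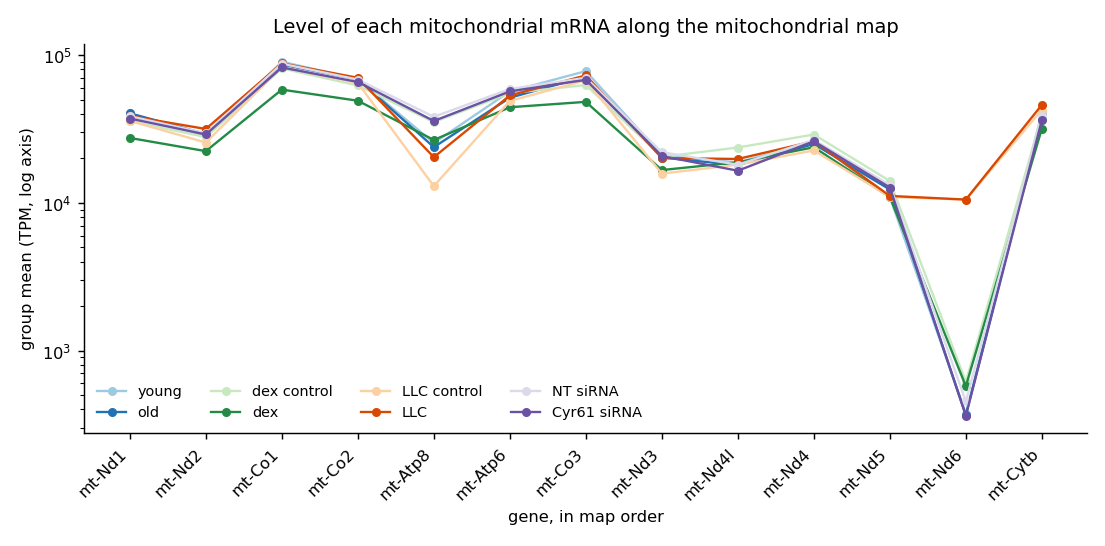
Group mean TPM (y axis, log scale) of the 13 mitochondrial mRNAs in the order of their positions on chrM (x axis), 1 line for each of the 8 groups. The lines lie furthest apart at mt-Nd6, and next at mt-Atp8. At mt-Nd6 the LLC and LLC control lines are at 10524 and 10511 TPM and the other 6 groups lie between 362 and 615 TPM. The dex line is the lowest of the 8 at mt-Co1 (58399 TPM), mt-Co2, mt-Co3, mt-Cytb and mt-Nd1.

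Spread between libraries of a group was smaller as a share than as TPM for 12 of the 13 mRNAs, by very different amounts. The SD of log2 levels within groups, pooled over the 8 groups, was 0.124 for mt-Co2 as TPM and 0.0399 as a share. For mt-Nd1 it was 0.144 and 0.0507. It hardly differed for mt-Nd5, at 0.147 and 0.144, for mt-Nd4l, at 0.143 and 0.129, and for mt-Cytb, at 0.0940 and 0.0814. The exception was mt-Nd6, at 0.383 as TPM and 0.394 as a share. mt-Atp8 had the second widest spread, 0.357 as TPM and 0.290 as a share. A share depends on the other members, so shares of 1 library are not independent of each other.

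mt-Nd6, the 1 mRNA of the opposite strand, was the member whose level differed most between experiments. It stood at 9292, 10687, 11431 and 10635 TPM in the LLC controls and at 9500.0, 11325, 11615 and 9657 TPM in the LLC libraries. In the other 22 libraries it ranged from 213 (old 3) to 1001 TPM (dex 2), with a median of 426. The 8 and the 22 libraries did not overlap, and the ratio of their means was 22.6. As a share, mt-Nd6 held 1.92 to 2.39% in the LLC experiment and 0.0488 to 0.294% elsewhere. These are levels of different experiments and were not tested. mt-Nd5, which faces mt-Nd6 at their shared end, did not stand apart, with 9198 to 12959 TPM in the LLC experiment and 9166 to 15414 TPM elsewhere.

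**Figure D3:**
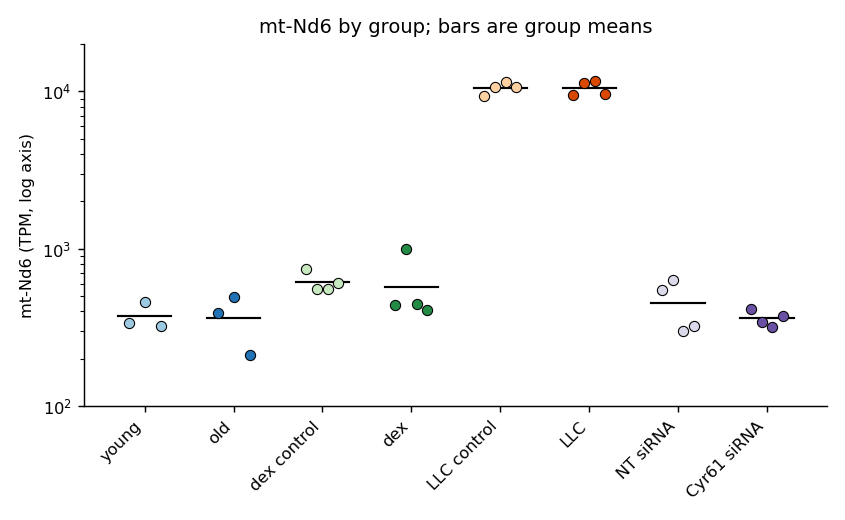
mt-Nd6 in TPM (y axis, log scale) by group (x axis), with 1 point per library and a bar at each group mean. The 8 libraries of the LLC experiment lie between 9292 and 11615 TPM, and the other 22 lie between 213 and 1001 TPM.

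Levels in the LLC experiment were also set beside those elsewhere for nuclear genes that face another gene on the opposite strand. Of 45 nuclear genes with at least 80% of their exon bases opposite an exon of another gene, 10 (22.2%) were at least 4-fold higher in the LLC experiment than elsewhere, and 2 (4.44%) were at least 4-fold lower, with a median ratio of 0.956. Of 3935 genes with a smaller part of their exon bases facing an exon, 50 (1.27%) were as much higher. Of 251 genes that lie inside an opposite-strand gene without sharing exon bases, 8 (3.19%) were as much higher. Of 8694 genes with no such neighbour, 31 (0.357%) were, against 99 of 12925 (0.766%) over all nuclear genes that reached 1 TPM in any library. At least 4-fold lower were 7 of the 3935 (0.178%), 5 of the 251 (1.99%) and 143 of the 8694 (1.64%). Over all 12925 it was 157 (1.21%), more than were 4-fold higher. The kit keeps strand, per the labels' protocol, but the sources used here do not give the strand setting of the counting, and unless strand was used, reads of mt-Nd6 and of the RNA from the other strand cannot be told apart. The part of this in the mt-Nd6 levels was not tested. Within the LLC experiment mt-Nd6 differed by 0.00 on the log2 scale (SE 0.124) between tumour and control, and the groups overlapped.

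mt-Atp8, at 204 bases the shortest of the 13, had a low share in 6 of the 8 libraries of the LLC experiment. Its share was 2.60, 2.98, 2.81 and 2.88% in the 4 LLC controls. In the 4 LLC libraries it was 2.24, 5.03, 5.67 and 2.66%, so LLC 2 and LLC 3 lay far above the other 6 libraries of the experiment and among those of the other experiments. Elsewhere it ran from 3.37 (old 3) to 7.89%, with 7.02 ± 0.459% in dex, 7.23 ± 0.363% in dex control, 5.04 ± 0.738% in young and 4.83 ± 1.27% in old muscle (SD, n = 4, 4, 3 and 3). In TPM, mt-Atp8 averaged 16676 in the LLC experiment and 31435 in the other 22 libraries. LLC 2 and LLC 3 were also the highest of the 8 in the shares of mt-Nd2 (5.67, 6.58, 6.70 and 5.78% in the 4 LLC libraries, 5.89, 5.27, 5.77 and 5.40% in the controls) and mt-Nd3 (3.29, 4.22, 4.52 and 3.64%, and 3.63, 3.40, 3.32 and 3.41% in the controls). Short nuclear genes were taken as protein-coding genes of at most 500 exon bases that reached 1 TPM in any library. They held 0.722% of nuclear TPM in LLC 2, 0.888% in LLC 3 and 0.859 to 1.01% in the other 6 libraries of the experiment. Whether library preparation or transcript length bore on the share of mt-Atp8 was not tested.

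**Figure D4:**
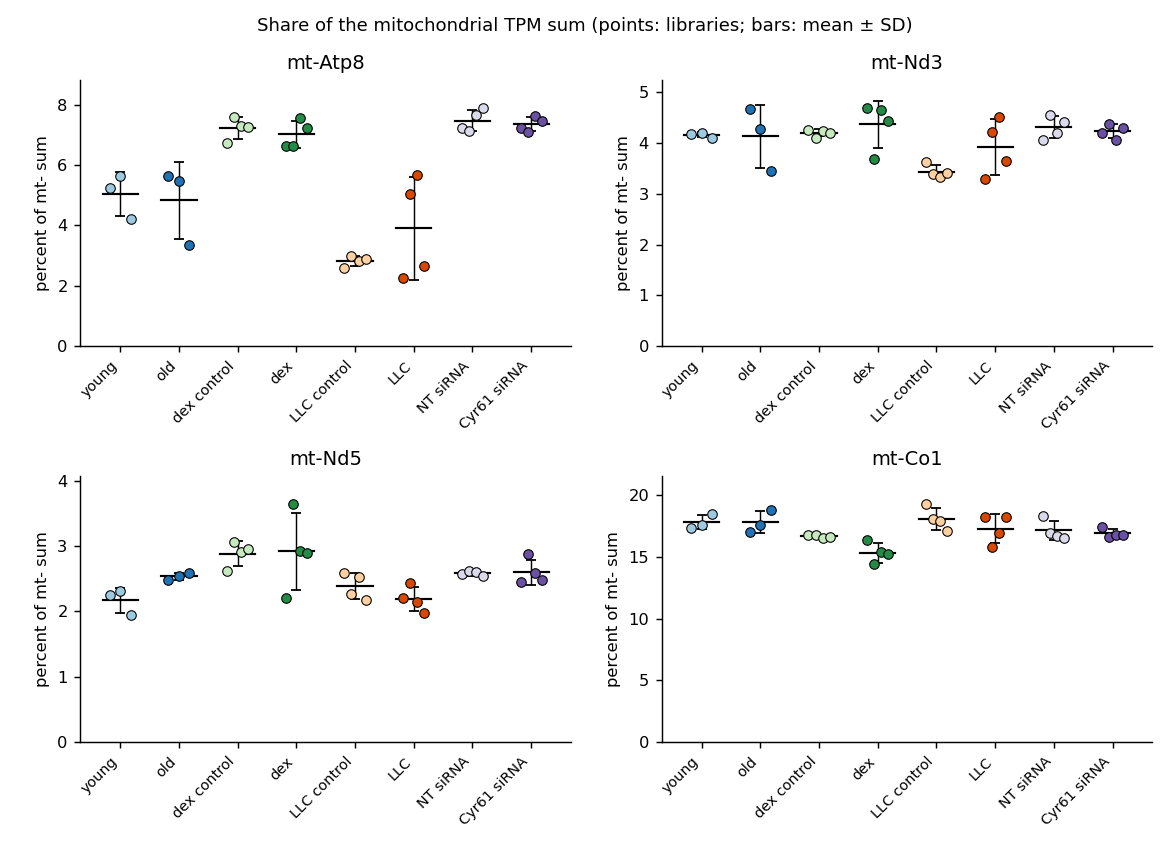
Share of the mitochondrial TPM sum (y axis, percent, from 0) of mt-Atp8, mt-Nd3, mt-Nd5 and mt-Co1 by group (x axis), with 1 point per library and the mean ± SD of each group. In mt-Atp8, LLC 2 and LLC 3 at 5.03 and 5.67% stand above the other LLC experiment libraries, and in mt-Co1 all 4 dex libraries stand below all 4 dex controls.

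After dexamethasone, 6 of the 13 mRNAs fell in TPM at an adjusted p under 0.05 and none rose. Adjusted p comes from limma (moderated linear models fitted to log2(TPM + 1) of all genes, Benjamini-Hochberg adjustment), and a gene past this threshold is called below. Over all 11944 genes tested, 1.51% were called lower and 35.9% higher. TPM sums to a constant, so lower values of such abundant mRNAs go with higher values of the rest. mt-Co1 stood at 67972, 49122, 60219 and 56282 TPM in the dex libraries and at 85186, 84150.1, 78952 and 76734 TPM in their controls. All 4 dex values were the lower ones, a log2 change of −0.49 (SE 0.135, adjusted p = 0.0220). mt-Nd1, a complex I subunit near the site of ubiquinone binding, stood at 29984, 24961, 28693 and 26368 against 37909.9, 36261, 35291 and 33932 TPM, a log2 change of −0.38 (SE 0.113, adjusted p = 0.0264). mt-Atp8 stood at 27600.5, 22589, 29671 and 26738 against 34154, 38246, 34814 and 33695 TPM, a log2 change of −0.41 (SE 0.123, adjusted p = 0.0285). In each of these too, all 4 dex values lay below all 4 control values.

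The remaining called genes were all of complex I. mt-Nd2 stood at 21886, 23347, 21675 and 22616 TPM in dex and 26805, 29104, 27748 and 27739 TPM in control muscle (log2 change −0.32, SE 0.102, adjusted p = 0.0356). mt-Nd5 stood at 9166, 12414, 11460.2 and 10734 against 13291, 15414, 13874 and 13664 TPM (log2 change −0.37, SE 0.121, adjusted p = 0.0381). mt-Nd4 stood at 23646, 24137, 23539 and 23838 against 29251, 29895, 28292 and 28597 TPM (log2 change −0.29, SE 0.0999, adjusted p = 0.0459). In each of these, no dex library reached the lowest control. The other 7 mRNAs did not pass: mt-Nd4l, mt-Co2, mt-Co3, mt-Cytb, mt-Atp6 and mt-Nd3 had log2 differences of −0.39 to −0.29 with adjusted p from 0.0509 to 0.0986, and mt-Nd6 one of −0.20 with an adjusted p of 0.513. In 12 of the 13, all but mt-Nd6, the groups did not overlap, which held for 1.66% of all genes in this direction and 34.3% in the other. The median log2 change was −0.34 for the 13 and 0.33 for all genes.

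The number of calls moved with the settings while the direction did not. It was 5 after median-of-ratios scaling, which set the median of all genes to 0.02 and that of the 13 mRNAs to −0.71, and split the calls of all genes into 530 higher and 563 lower in place of 4290 and 180. These 5 were mt-Nd5, mt-Nd4l, mt-Nd2, mt-Atp8 and mt-Nd4 (adjusted p from 0.0172 to 0.0498). mt-Co1 (adjusted p = 0.0573) and mt-Nd1 (adjusted p = 0.0539) no longer passed there. Rescaled to the TPM of all rows but the mt- rows, every mRNA of the main call passed, as did mt-Nd4l and mt-Cytb. In the TPM fit the number was 0 without a filter on low values and without dex control 1, dex control 2 or dex 4, 1 without dex control 3 or dex control 4, 3 without dex 3, and 11 without dex 1. The summed TPM of 8 macrophage markers moved with this comparison, at 1067 to 2597 TPM in dex and 298 to 515 TPM in control libraries, with all 8 detected, and smooth muscle and pericyte markers did so at 347 to 472 TPM and 247 to 316 TPM. The 7 skeletal muscle markers summed to 78284 to 105854 TPM and 74652 to 86885 TPM. The part of other cells in the lower mitochondrial mRNAs was not tested.

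As shares, mt-Co1 was lower and mt-Cytb higher in every dex library than in every control, and neither passed the test. In the fit of shares, which divides every gene of a library by its mt- sum, 0 of 13 were called, with adjusted p from 0.155 to 0.980 and 0 of 13 at an unadjusted p under 0.05; 81.4% of all genes were called higher there and 0.72% lower. The share of mt-Co1 was 16.4, 14.4, 15.4 and 15.2% in dex and 16.8, 16.7, 16.5 and 16.6% in control libraries. The groups did not overlap, which held for 0.578% of all genes in this direction, and the log2 difference was −0.12 (SE 0.0768, adjusted p = 0.155). The share of mt-Cytb, the cytochrome b of complex III, was 8.33, 8.65, 8.30 and 8.28% against 8.09, 7.89, 7.99 and 7.95%, again without overlap but higher in dex, as held for 58.6% of all genes; its log2 difference was 0.07 (SE 0.0734, adjusted p = 0.363). The other 11 shares overlapped between the groups. For a nuclear gene this fit holds a ratio to the mt- sum, not a part of it, and that sum was lower in every dex library. Percents of all genes in fits of shares, here and below, are therefore no like base rate for the members. This fit takes its spread partly from all genes, and its SE exceeded the SE of the member's own 8 libraries for 10 of 13, by 1.38 times at the median. Over its own libraries the SE was 0.0167 for mt-Cytb and 0.0380 for mt-Co1, against 0.0734 and 0.0768 in the fit. The same held for 12 of 13 members under LLC, 10 of 13 in old muscle and 12 of 13 with Cyr61 siRNA, with median ratios of 2.04, 1.93 and 2.19. A count of 0 calls in this fit therefore does not show that shares stayed alike. dex 2, the library with the lowest mt- sum, also had the highest share of mt-Nd5 and the lowest of mt-Co1 in the series, and the highest share of mt-Nd6 outside the LLC experiment (0.294%). The short nuclear genes defined above held 0.578% of nuclear TPM in dex 2, the lowest of the 30 libraries, and their part in these shares was not tested.

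Under LLC cancer 0 of the 13 mRNAs were called in either direction, against 0.295% of 10830 genes called higher and 0.886% lower. None had an unadjusted p under 0.05, and adjusted p ran from 0.426 to 1.00. The log2 difference was above 0 for 12 of 13, with a median of 0.11 for the 13 and −0.05 for all genes. mt-Nd2 had the smallest p, at 27999, 31126, 40497 and 26875 TPM in LLC and 24518, 24730.1, 28093 and 25106 TPM in control libraries, a log2 difference of 0.29 (SE 0.142, adjusted p = 0.426). mt-Nd3, a small complex I subunit, stood at 16238, 19961, 27294 and 16933 against 15122, 15953, 16184 and 15848 TPM, a log2 difference of 0.32 (SE 0.159, adjusted p = 0.433). It was the only member whose groups did not overlap in TPM, as 1.5% of all genes did in this direction and 6.13% in the other. mt-Atp8 stood at 11066, 23802, 34278 and 12349.8 against 10849.7, 13992, 13680.0 and 13392 TPM, a log2 difference of 0.50 (SE 0.304, adjusted p = 0.541).

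LLC 2 and LLC 3 were the 2 highest LLC libraries in mt-Nd2, mt-Nd3 and mt-Atp8, and were chosen after these values were seen. Leaving them out therefore had to lower these differences. Without LLC 2 and LLC 3, which is a comparison of 2 with 4 libraries, the log2 difference was 0.10 for mt-Nd2, 0.07 for mt-Nd3 and −0.14 for mt-Atp8. As shares, 0 of 13 were called (0.332% of all genes were higher and 1.51% lower), adjusted p ran from 0.557 to 0.983, and all 13 overlapped, while 0.185% of all genes were higher and 6.59% lower without overlap. The share of mt-Atp8 had a log2 difference of 0.36 (SE 0.207, adjusted p = 0.557), and of −0.21 without LLC 2 and LLC 3. The summed TPM of 5 red cell markers was 717 to 7806 TPM in LLC and 622 to 792 TPM in control libraries, with all 5 detected, which overlapped, and the 7 skeletal muscle markers summed to 59513 to 87211 TPM and 90604 to 97945 TPM, without overlap. The part of either in these values was not tested.

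In old muscle 0 of 13 mRNAs were called, against 0.152% of 10511 genes called higher and 0.019% lower. None had an unadjusted p under 0.05, and adjusted p ran from 0.524 to 0.994. mt-Nd5 had the smallest p, at 12758, 12868 and 11317 TPM in old and 10817, 11824 and 10235 TPM in young muscle, a log2 difference of 0.17 (SE 0.0982, adjusted p = 0.524). The groups overlapped in all 13, while 15.5% of all genes were higher and 0.761% lower without overlap. mt-Atp6 and mt-Co3 followed, with log2 differences of −0.14 (SE 0.0909, adjusted p = 0.558) and −0.12 (SE 0.0982, adjusted p = 0.633). The median was −0.07 for the 13 mRNAs and 0.14 for all genes. As shares, 0 of 13 were called (1.11% of all genes were higher and 0.133% lower), with adjusted p from 0.665 to 0.997. The share of mt-Nd5 was 2.48, 2.55 and 2.59% in old and 2.25, 2.31 and 1.95% in young muscle, without overlap, a log2 difference of 0.23 (SE 0.126, adjusted p = 0.665). The share of mt-Nd1 was 8.35, 8.16 and 8.47% against 8.15, 7.79 and 7.96% and also did not overlap. Of all genes, 10.4% were higher without overlap in this fit and 0.219% lower, and mt-Atp6 was the 1 member that was lower without overlap, at 9.94, 10.9 and 11.1% against 11.3, 11.3 and 11.1%. The summed TPM of 8 macrophage markers was 54.98 to 89.1 TPM in old and 31.4 to 54.3 TPM in young muscle, without overlap. That of 5 neutrophil markers was 2.99 to 12.3 TPM and 1.10 to 2.24 TPM, also without overlap, with Ly6g at 0 in young muscle, and the part of either in these shares was not tested.

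With Cyr61 siRNA 0 of 13 mRNAs were called, and limma called 0 of 11006 genes (0% in each direction), with 109 of all genes and 0 of the 13 at an unadjusted p under 0.05. All 13 log2 differences were below 0, between −0.25 and −0.03, with adjusted p of 0.999 throughout, and their median was −0.06 beside 0.07 for all genes. mt-Nd4l stood at 16761, 18859, 14629 and 15749.5 TPM with Cyr61 siRNA and 18114, 17796, 16115 and 20477 TPM with NT siRNA, a log2 difference of −0.14 (SE 0.118, adjusted p = 0.999). mt-Nd6 stood at 413, 341, 320.5 and 375 against 547, 636, 303 and 323 TPM (−0.25, SE 0.235, adjusted p = 0.999), and mt-Cytb differed by −0.08 (SE 0.103, adjusted p = 0.999). As shares, 0 of 13 were called beside 0% of all genes, adjusted p ran from 0.947 to 0.989, and all 13 overlapped, as they did in TPM, where 0.954% of all genes were higher and 0.0363% lower without overlap.

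**Figure D5:**
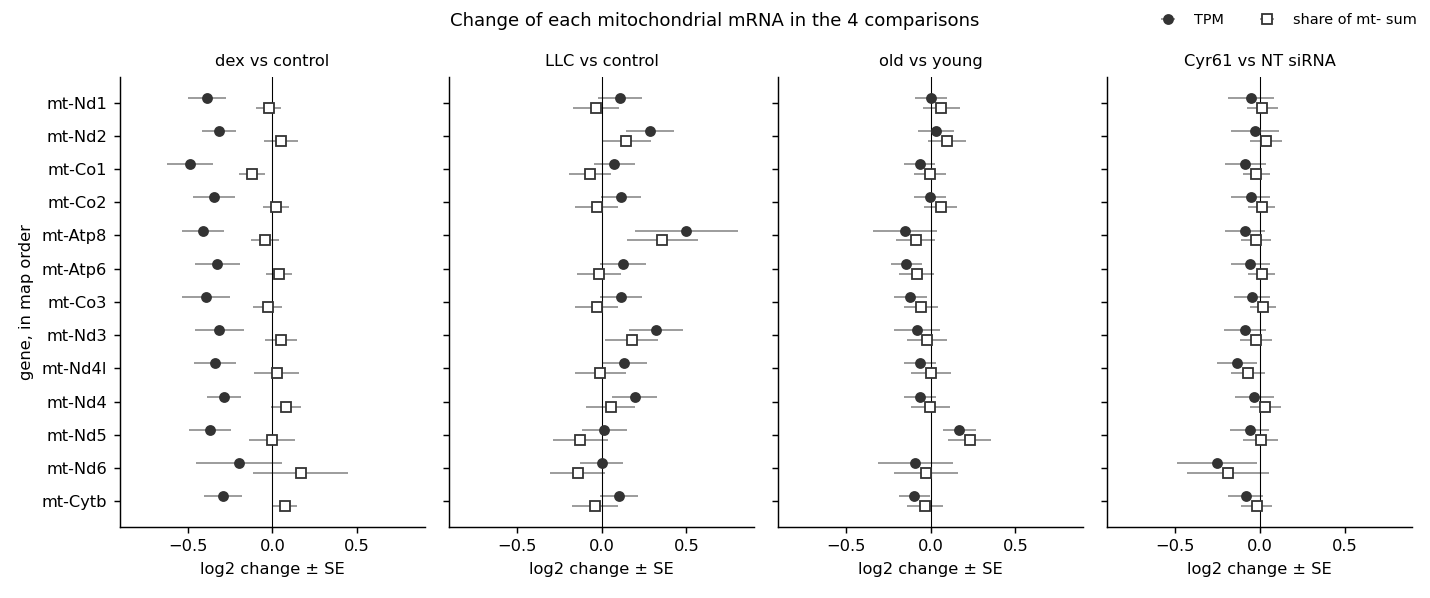
Log2 change ± SE (x axis) of each mitochondrial mRNA, in map order (y axis), in the 4 comparisons, as TPM (filled circles) and as share of the mitochondrial sum (open squares). After dexamethasone all 13 TPM changes lie between −0.49 and −0.20 and all 13 share differences between −0.12 and 0.17, while in the other 3 panels no change passed the test.

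The LLC response was called above the dexamethasone response for 10 of 13 mRNAs with all libraries, and for 1 of 13 without LLC 2 and LLC 3. In a fit of the 22 libraries of the dex, LLC and age experiments, the LLC response minus the dexamethasone response was called above 0 for 10 of 13 mRNAs, against 1.09% of 12392 genes called in this direction and 26.5% in the other. The difference on the log2 scale was 0.60 (SE 0.164, adjusted p = 0.0150) for mt-Nd2, 0.56 (SE 0.157, adjusted p = 0.0172) for mt-Co1 and 0.48 (SE 0.145, adjusted p = 0.0230) for mt-Nd4. For the other 7 called genes it lay between 0.40 (mt-Cytb) and 0.63 (mt-Nd3), with adjusted p from 0.0248 to 0.0472. mt-Atp8 (0.91, SE 0.365, adjusted p = 0.0633), mt-Nd5 (0.38, SE 0.162, adjusted p = 0.0733) and mt-Nd6 (0.20, SE 0.337, adjusted p = 0.622) did not pass. The median was 0.48 for the 13 and −0.37 for all genes. Without LLC 2 and LLC 3 together, the 1 called was mt-Co1 (0.56, adjusted p = 0.0306), and the other 9 had differences of 0.33 to 0.50 with adjusted p from 0.0640 to 0.184. That fit held fewer LLC libraries, and the part of this in the lost calls was not tested. After median-of-ratios scaling 4 of 13 were called, mt-Nd2, mt-Nd4l, mt-Nd5 and mt-Nd4 (adjusted p from 0.0273 to 0.0360). Of these, mt-Nd5 was not among the 10, and mt-Co1 did not pass there (0.99, adjusted p = 0.0576). In the TPM fit the number called was 3 without dex control 1 or LLC 3, and 4 without dex control 2, dex 4 or LLC control 1. It was 5 without LLC control 2 and 6 without dex 3 or LLC control 4.

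As shares, 0 of 13 differed between these responses at an adjusted p under 0.05 (0.597% of all genes were called higher and 81.7% lower), with adjusted p from 0.185 to 0.989. The age response differed from the dexamethasone response for 0 of 13 mRNAs in TPM, beside 0.759% of all genes called higher and 1.3% lower. All 13 differences were above 0, and 4, those of mt-Nd5 (0.54, SE 0.174, adjusted p = 0.131), mt-Co1, mt-Nd1 and mt-Co2, had an unadjusted p under 0.05, as did 1837 of all 12392 genes (14.8%). LLC and age responses differed for 0 of 13 mRNAs, with adjusted p from 0.523 to 0.908, beside 0.00807% of all genes called higher and 0.0403% lower. As shares, both of these contrasts had 0 of 13 called, with 0.5% and 2.71% of all genes called higher and lower in the first and 0.00807% and 0.0726% in the second. LLC minus dexamethasone and old minus dexamethasone share the dex libraries, and LLC minus old shares libraries with both.

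The nuclear genes of the same complexes did not fall with the mitochondrial ones as TPM. Of 77 nuclear subunits of complexes I to V, 1 was called higher and 1 lower after dexamethasone, and their median log2 change was −0.02, beside −0.34 for the 13 mitochondrial mRNAs and 0.33 for all genes. Cox7a1, the heart and muscle form of a complex IV subunit, fell from 882 ± 53.4 to 679 ± 74.3 TPM (log2 change −0.38, adjusted p = 0.0199), n = 4 each. Atp5g2, a gene for the c subunit of ATP synthase, rose from 219 ± 2.48 to 261 ± 15.6 TPM (log2 change 0.25, adjusted p = 0.0357). After median-of-ratios scaling the median was −0.39, all 77 were below 0, and 0 were called higher and 7 lower: Cox7a1 (−0.75, adjusted p = 0.0318), Ndufab1, Ndufs7, Cyc1, Uqcrc1, Cox5a and Atp5g3, with changes of −0.59 to −0.47 in the last 6. In the other comparisons 0 of 77 were called, with medians of −0.17 under LLC (−0.06 without LLC 2 and LLC 3), −0.06 in old muscle and −0.08 with Cyr61 siRNA. The differences between nuclear and mitochondrial genes were not tested as such.

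Among genes that act on mitochondrial DNA and RNA, 9 of 47 tested (19.1%) were called higher in TPM after dexamethasone and 0 lower, a smaller share than the 35.9% of all genes called higher, and none of these calls held after scaling. Of 10 genes of mitochondrial transcription, 2 were called higher and 0 lower. Tfb2m, which opens mitochondrial promoters for the polymerase Polrmt, rose from 31.7 ± 1.29 to 38.6 ± 2.86 TPM (log2 change 0.27, adjusted p = 0.0397), and Tfb1m, an rRNA methyltransferase, from 6.88 ± 0.384 to 9.47 ± 1.03 TPM (log2 change 0.40, adjusted p = 0.0207). Of 20 genes of RNA processing and stability 3 were called higher and 0 lower. Elac2, which trims the 3′ ends of tRNAs, rose from 11.9 ± 0.759 to 16.3 ± 2.23 TPM (log2 change 0.42, adjusted p = 0.0208). Rexo2, an oligoribonuclease, rose from 59.7 ± 3.20 to 79.98 ± 5.01 TPM (log2 change 0.41, adjusted p = 0.00858). The other was Pde12, a poly(A) exonuclease. Of 10 genes of replication and upkeep, Tk2 and Ssbp1, a nucleoside kinase and a single-stranded DNA binding protein, were called higher (log2 changes 0.38 and 0.37). None of the 10 was called lower. Of 7 regulators of mitochondrial biogenesis, Pprc1 and Nrf1 were called higher (log2 changes 0.69 and 0.39) and 0 were called lower. Of the 7, 3 had changes below 0, the largest −0.40 for Perm1 (adjusted p = 0.0902). Medians of these 4 lists were 0.20, 0.20, 0.30 and 0.11, below the 0.33 of all genes. After scaling, 0 were called higher in the 4 lists and 5 were called lower: Mterf2 (−0.54, adjusted p = 0.0255), Grsf1 (−0.38, adjusted p = 0.0409), Perm1 (−0.76, adjusted p = 0.0109), Ppargc1b (−0.63, adjusted p = 0.0157) and Esrra (−0.47, adjusted p = 0.0405). Pde12, Nrf1, these 5 and the 6 subunits named with Cox7a1 were named after their values were seen.

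Under LLC these 4 lists held 1 call. Ppargc1b, a coactivator that promotes mitochondrial gene expression, fell from 3.36 ± 0.672 to 1.39 ± 0.388 TPM (log2 change −0.87, adjusted p = 0.0201), n = 4 each, and had a log2 change of −0.82, adjusted p = 0.0419 after scaling and of −0.88, adjusted p = 0.0300 without LLC 2 and LLC 3. It lay under the level set for naming and was named after its values were seen. No gene of the 4 lists was called in old muscle or with Cyr61 siRNA. Among lists meant to mark other RNA fractions, 0 of 4 tested genes of the list without poly(A) tails were called as TPM in the 4 comparisons of groups. All 4 are histone genes, and 1, Hist1h2bc, was called lower for LLC minus dexamethasone (−0.72, adjusted p = 0.0197). After scaling Hist1h1e, a linker histone gene, was called lower after dexamethasone (−0.61, adjusted p = 0.00732) and under LLC (−0.77, adjusted p = 0.0419). Both were named after their values were seen. Malat1, a long RNA that stays in the nucleus, rose under LLC from 57.9 ± 6.39 to 109 ± 23.6 TPM (log2 change 0.88, adjusted p = 0.0287), with a log2 difference of 0.69, adjusted p = 0.0658 without LLC 2 and LLC 3. Meg3, a maternally expressed long noncoding RNA, rose after dexamethasone from 8.19 ± 0.862 to 14.3 ± 4.87 TPM (log2 change 0.68, adjusted p = 0.0331), a call lost after scaling (0.35, adjusted p = 0.208). All 4 tested histone genes had log2 differences below 0 under LLC, with a median of −0.58. Whether their transcripts lacked a poly(A) tail in these libraries was not tested. Their part in the mitochondrial values was not tested.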

How the data were processed

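RNA of 30 tibialis anterior samples was sequenced after a stranded mRNA library kit, per the labels' protocols. The authors deposited 1 table of TPM (transcripts per 1000000) for all genes, made on mm10 per the submitters' processing notes. The sources used here do not give the aligner, counter, annotation or strand setting. Groups follow the labels.

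The members are all rows whose symbol starts with mt-. Genes that reached 1 TPM in a number of libraries equal to the size of the smaller group were tested with limma 3.58.1 (R 4.3.3) on log2(TPM + 1), with a variance trend, 2 groups at a time, two-sided, Benjamini-Hochberg adjustment over all genes and a threshold of 0.05. A fold change on this scale understates that of low genes. For shares, each library was divided by its mt- sum and multiplied by 500000 before the same fit. Differences between responses were fitted over 22 libraries of 6 groups. The script was tested on simulated data. Tables and figures were made with Python 3.11.15, pandas 2.3.3 and matplotlib 3.10.9.

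TPM carries no depth, but multiplied by GENCODE M21 exon length and divided by the worth of 1 read it gave whole numbers in every library for 15797 of 22166 nuclear genes. Over these genes and the 13 mitochondrial mRNAs it gave 20352333 to 39773118 reads per library, a lower bound. No sample pair of 1 group held identical values.

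Log2 changes are given for members called in a comparison, and otherwise for the 3 with the smallest p. Values by library are always given for mt-Co1 and mt-Nd6. From the other lists, up to 3 called genes with the largest change and a mean of at least 5 TPM are named, and exceptions are marked. Members, gene lists and tests were chosen with earlier results of these data known. The labels call the samples biological replicates but do not spell out their origin in separate animals, so p-values may not measure spread between animals. Whether groups share animals is not stated either. Pseudocount, filters, scaling, trend, robust fit, replicate block, a fit of all groups and leaving out each library were tried as alternatives. The comparisons without LLC 2 and LLC 3 together and the SE of shares over a member's own libraries were added after seeing the data.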

Additional observations from a re-analysis of the deposited data

Results flagged for a closer look

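In groups of 4 libraries, a value was marked where its gap to the nearest other library, divided by the range of the group, passed Dixon's critical value. Chance marks about 1 in 20 groups, and 13 of 162 tests were marked. LLC 3 was marked for mt-Atp6, at 63013 TPM, and LLC 4 for the share of mt-Atp6, at 10.7% of the mt- sum. In the LLC controls, replicate 1 was marked for mt-Atp6 (39750.5 TPM) and mt-Co3 (56478.5 TPM) and replicate 3 for mt-Nd2 (28093 TPM). dex 2 was marked for mt-Nd6, at 1001 TPM and 0.294% of the mt- sum, and for the share of mt-Cytb, at 8.65%. dex control 1 was marked for the share of mt-Nd4l, at 4.41%. In the siRNA experiment, NT siRNA 4 was marked for mt-Nd1 (46706 TPM) and mt-Nd2 (35727 TPM), and Cyr61 siRNA 3 for mt-Nd1 (30846.5 TPM) and mt-Co2 (57363 TPM).

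The LLC and dexamethasone responses differed in limma's test of the difference for 10 mRNAs, with LLC minus dexamethasone above 0 in each. On the log2 scale the difference was 0.60 for mt-Nd2 (adjusted p = 0.0150), 0.56 for mt-Co1 (adjusted p = 0.0172), 0.48 for mt-Nd4 (adjusted p = 0.0230), 0.49 for mt-Nd1 (adjusted p = 0.0248) and 0.46 for mt-Co2 (adjusted p = 0.0328). It was 0.40 for mt-Cytb (adjusted p = 0.0336), 0.47 for mt-Nd4l (adjusted p = 0.0348), 0.50 for mt-Co3 (adjusted p = 0.0362), 0.63 for mt-Nd3 (adjusted p = 0.0404) and 0.45 for mt-Atp6 (adjusted p = 0.0472). Without LLC 2 and LLC 3 together, which leaves fewer samples, 1 of the 10, mt-Co1, passed.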

How the results depend on the processing

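The number of mRNAs called lower after dexamethasone was 6 in the main fit and 0 without a filter on low values. It was 11 with a filter of 5 TPM, 11 with no variance trend and 11 with robust eBayes. It was 10 with all 8 groups in 1 fit, where mt-Atp8 no longer passed (adjusted p = 0.138), and 0 to 11 when 1 library was left out. The cause was not tested. With the replicate number as a block, 3 were called. The labels do not say whether the numbers pair the samples. To look at this, the mean of its group was subtracted from each gene. What remained correlated between same-numbered dex and dex control samples at 0.0267 to 0.498. Every such correlation of the 4 comparisons was above 0. No comparison had every pair above 0.1, and not every sample correlated best with its own number. These values do not settle whether the numbers pair the samples. The number of mRNAs called with a higher LLC than dexamethasone response went from 10 to 4 after median-of-ratios scaling, with mt-Nd5 new among the 4. It was 1 without LLC 2 and LLC 3 together and 3 to 12 when 1 library was left out, and as shares 0 became 0 to 1. Without LLC 2 and LLC 3 together, which leaves fewer samples, the LLC difference of mt-Atp8 turned to −0.14 as TPM and −0.21 as a share on the log2 scale. There, as shares, LLC minus dexamethasone turned to 0.0776 for mt-Co3, −0.00985 for mt-Nd2, −0.0391 for mt-Nd3 and 0.0209 for mt-Nd4l, and LLC minus old to −0.12 for mt-Atp8. Some differences near 0 in shares changed sign when 1 library was left out. For LLC minus dexamethasone they ran from −0.0522 to 0.0439 for mt-Co3, −0.0395 to 0.0156 for mt-Nd1, −0.0724 to 0.0327 for mt-Nd4 and −0.16 to 0.0675 for mt-Nd4l, after dexamethasone from −0.0223 to 0.10 for mt-Nd2 and −0.12 to 0.12 for mt-Nd5, and with Cyr61 siRNA from −0.38 to 0.0286 for mt-Nd6. Of the other values of single genes, 985 kept their direction and side of the threshold and 118 kept their direction but no longer passed. Of the counts and sums, 503 stayed within the limits set for them. Dividing by the 13 mRNAs alone gave the same values, since the other mt- rows are listed at 0. The 387 whole values of these mRNAs rest on high read numbers, and what the number of libraries per group limits was not tested.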
